A study of Mus musculus with 6 samples.

Results

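The cells described here are the stromal cells of the control uterus, 1326 cells to which the authors' annotation gave the type Stromal in the control (CO) single-cell library. They were taken by that annotation, by membership of the CO library and by having passed the authors' quality control. They made up 10.8% (exact 95% interval 10.3 to 11.4%) of the 12253 annotated CO cells, 32387 CO cells had counts in all, and the series held 48699 cells. The CO cells came from the pooled uterine horns of 2 female CD-1 mice that were 12 months old, had been injected under the skin with corn oil on days 1 to 5 after birth, and were picked in estrus. The comparison library, also 12 months old and of the same strain, pooled 4 mice injected on the same days with diethylstilbestrol (DES), a synthetic estrogen, at 1 mg/kg/day, and such mice stay in estrus as adults. Cells were freed with trypsin, so the library holds the cells that this treatment released. Frozen uterine sections from 2 CO mice and 2 DES mice, 1 section each and all 12 months old, were measured by spatial transcriptomics and carry the only replicated comparisons.

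The stroma of the uterus, or endometrial mesenchyme, lies between the lining epithelium and the muscle. Its fibroblast-like cells lay down collagen and elastic fibres, carry receptors for estrogen and progesterone, and send signals that set the growth and form of the epithelium. In pregnancy they become the decidua.

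The stromal cells had a median of 8726.5 UMIs (unique molecular identifiers, 1 for each RNA molecule captured) and 2826.5 genes, and a median of 7.48% of their UMIs were mitochondrial. The other annotated CO types compared below were 6866 mesothelial cells, 2583 epithelial cells, 465 cells that the authors named for the gene Ctla2a, 423 lymphocytes, 341 endothelial cells, 85 myocytes, 75 pericytes and 67 myeloid cells, while 22 Stmn1-hi cells were too few to compare. Median depth ran from 3920 UMIs in pericytes to 23458 in epithelial cells. Levels are UMIs summed over the cells of a type and scaled by the total of that type to CPM, the usual per-library count unit, with exact Poisson 95% intervals, which reflect the counting error alone. Each condition was a single library, so nothing in the single cells was tested, and because the types were named on these same counts, differences between them are descriptions. CO and DES cells shared 180 barcodes, among them those of 5 of the 1326 stromal cells (0.377%), and leaving these cells out moved the level of Col6a4 only from 2077 to 2080 CPM.

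The printed sequences show the promoters of 3 genes that stood far above every other type in stromal cells and are described below. Crabp1, which encodes a cytoplasmic retinoic acid binding protein, lies at chr9:54764748-54773110 on the plus strand of GRCm38. Aldh1a2, which encodes an enzyme that makes retinoic acid, lies on the same chromosome at chr9:71215789-71296243. Sdk1, which encodes a cell adhesion protein of the immunoglobulin family, lies at chr5:141241490-142215586. Each sequence runs 5′ to 3′ on the plus strand of GRCm38.p6, from 250 bases before to 50 bases after the start given by RefSeq, at chr9:54764498-54764797, chr5:141241284-141241583 and chr9:71215539-71215838 in the order printed. Capitals mark GC boxes (GGGCGG on either strand) and, in Sdk1, 1 E-box (CATCTG on either strand), which do not overlap.
Crabp1: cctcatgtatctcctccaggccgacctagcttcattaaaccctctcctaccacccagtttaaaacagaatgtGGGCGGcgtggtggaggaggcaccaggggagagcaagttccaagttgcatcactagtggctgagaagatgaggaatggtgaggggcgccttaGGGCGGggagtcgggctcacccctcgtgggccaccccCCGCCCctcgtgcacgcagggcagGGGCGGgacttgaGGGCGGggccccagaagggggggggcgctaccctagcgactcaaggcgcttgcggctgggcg
Sdk1: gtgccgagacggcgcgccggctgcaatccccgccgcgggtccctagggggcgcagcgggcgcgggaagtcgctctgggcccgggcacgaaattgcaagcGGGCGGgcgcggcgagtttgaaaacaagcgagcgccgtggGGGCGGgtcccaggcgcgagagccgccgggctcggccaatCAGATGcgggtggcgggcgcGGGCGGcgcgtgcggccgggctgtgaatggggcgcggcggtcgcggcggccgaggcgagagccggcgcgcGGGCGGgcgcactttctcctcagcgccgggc
Aldh1a2: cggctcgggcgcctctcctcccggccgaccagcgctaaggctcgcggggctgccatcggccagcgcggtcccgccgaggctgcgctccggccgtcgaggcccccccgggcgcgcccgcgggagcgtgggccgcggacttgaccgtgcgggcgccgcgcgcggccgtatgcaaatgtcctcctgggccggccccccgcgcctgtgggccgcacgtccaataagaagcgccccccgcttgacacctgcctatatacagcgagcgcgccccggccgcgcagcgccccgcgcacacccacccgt

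The Crabp1 promoter held 5 GC boxes, the Sdk1 promoter held 4, and the Aldh1a2 promoter held none although 78% of its bases were G or C. Of the 25 genes that led in stromal cells, 14 had a promoter in the RefSeq table, with 16 promoters among them. GC boxes stood in 11 of these 16 promoters (68.8%) and in 35.7% of all 32851 mouse promoters of the same length. TATA boxes (TATAAA) stood in 3 of the 16, those of Ddit4l, Crtac1 and Gdpd2, against 13.6% of all promoters. The E-box was found in 2 of the 16 against 17.2%, and the nuclear receptor unit AGGTCA in 1 against 16.3%. The steroid receptor unit AGAACA was in none of the 16, and in 19.0% of all promoters. Both strands were searched for each motif, and the matches describe these windows only.

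Stromal cells were checked first against their 6 markers, which are matrix genes but for 1 chemokine. All 6 were higher in stromal cells than in every other type, and 5 of the 6 were higher by 2-fold or more. Col6a4, a chain of collagen VI, reached 2077 CPM (2051 to 2103) in stromal cells. The next type was pericytes at 715 CPM, and the other 7 types lay between 9.63 and 44.4 CPM. Vcan, the large proteoglycan versican, was at 207 CPM in stromal cells, 48.4 CPM in Ctla2a cells and 25.5 CPM in pericytes, a 4.29-fold lead. Ccl11, or eotaxin, which draws eosinophils, stood at 947 CPM against 210 CPM in pericytes and at most 7.56 CPM in the other types.

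Col6a3, another collagen VI chain, was at 2025 CPM in stromal cells, 627 CPM in pericytes and 399 CPM in myocytes. Mfap5, a protein of microfibrils, was at 1207 CPM against 547 CPM in Ctla2a cells. The exception to the 2-fold lead was Dpt, dermatopontin, a small matrix protein, at 265 CPM (256 to 274) in stromal cells and 184 CPM in Ctla2a cells. After every cell was thinned to 3000 UMIs, Col6a4 was found in 97.4% and Dpt in 54.3% of the 1303 stromal cells deep enough. In epithelial cells thinned to the same depth the shares were 2.81% and 0.312%. A median stromal cell showed 5 of the 6 markers.

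Markers of other types were low in stromal cells. The 8 epithelial markers summed to 1002 CPM in stromal cells and 9943 CPM in epithelial cells, and all 8 were at least 2-fold below the pooled other types. The 8 smooth muscle markers summed to 476 CPM against 40580 CPM in myocytes, and the 8 mesothelial markers to 182 CPM against 3551 CPM in mesothelial cells, with Wt1 the only one of those not 2-fold lower. The endothelial, pericyte, myeloid and lymphocyte sums were 49.9, 44.6, 18.7 and 5.54 CPM. The part of free RNA in these levels was not tested. A doublet caller marked 7 of the 1326 cells (0.528%), against 1.73% of the other annotated CO cells.

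Of 11925 genes at 10 CPM or more in any type, 172 (1.44%) were at 10 CPM or more in stromal cells and at least 2-fold above each of the 8 other types. The 25 with the largest lead among genes at 50 CPM or more are called the leading genes, and a median thinned stromal cell showed 12 of the 25 (5th to 95th percentile 6 to 16). Median Ctla2a, mesothelial and pericyte cells showed 1 of the 25, and median epithelial cells none. A gene with fewer than 3 UMIs in a type was compared with a floor of 3 UMIs, and in the 75 pericytes, which held few UMIs in all, that floor is 8.51 CPM.

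**Figure D1:**
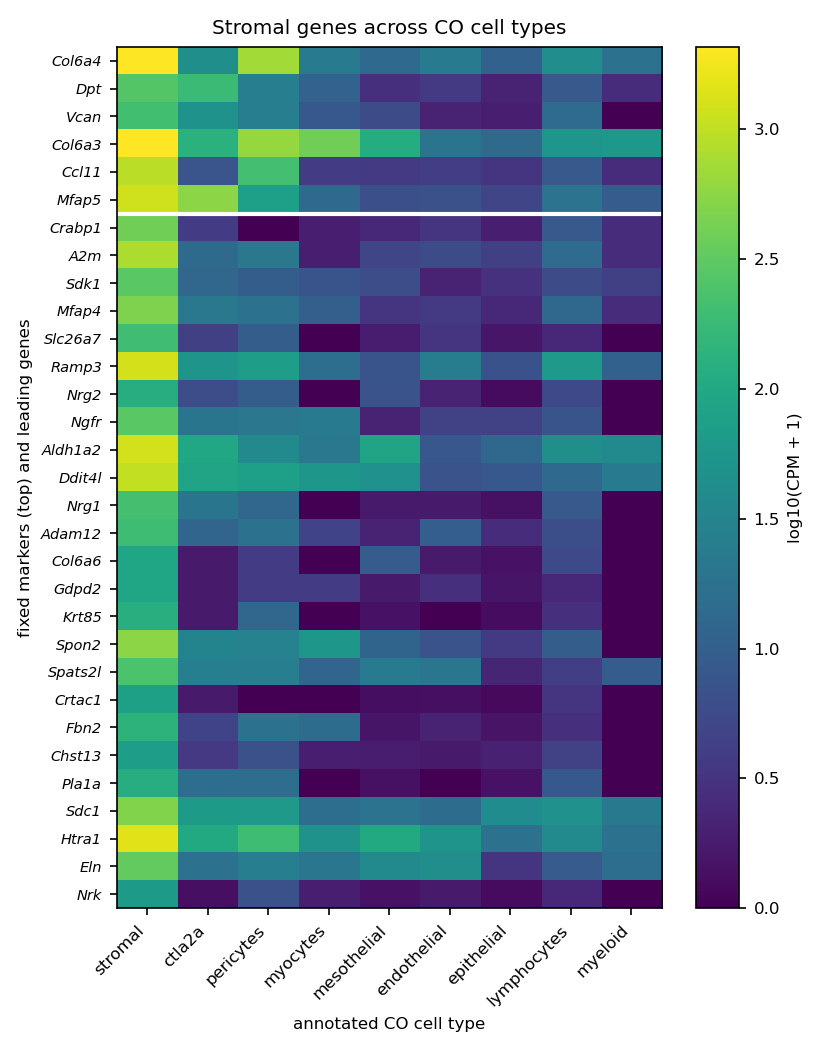
Levels of the 6 fixed markers (above the white line) and the 25 leading genes (below it) in 9 annotated CO cell types, as log10(CPM + 1) of summed UMIs on a colour scale. The stromal column is the brightest in each row, while Dpt and Mfap5 are also bright in Ctla2a cells (184 and 547 CPM) and Col6a4 and Col6a3 in pericytes (715 and 627 CPM).

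Among the leading genes were 2 of retinoic acid, Crabp1 and Aldh1a2. Crabp1 was at 398 CPM (386 to 409) in stromal cells, had 0 UMIs in pericytes and reached at most 7.56 CPM, in lymphocytes. It was at least 46.7-fold higher in stromal cells than the pericyte floor allows. Aldh1a2 was at 1217 CPM against 94.6 CPM in Ctla2a cells and 85.0 CPM in mesothelial cells. Aldh1a1, a second enzyme of retinoic acid synthesis, stood at 309 CPM and was 4.05-fold above mesothelial cells. Those were the 3 of the 17 tested retinoid genes that led, and 5 of the 17 (Rdh10, Dhrs9, Rbp4, Crabp2 and Cyp26a1) were at least 2-fold below the pooled other types. Over all genes tested 1.44% led and 21.7% were at least 2-fold below.

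Proteases, a protease inhibitor and adhesion genes were also among them. A2m, the broad protease inhibitor alpha-2-macroglobulin, was at 806 CPM in stromal cells and at most 19.9 CPM elsewhere, a 40.6-fold lead over pericytes. Htra1, a secreted serine protease, was at 1459 CPM against 190 CPM in pericytes. Adam12, a membrane metalloprotease, was at 192 CPM against 17.0 CPM. The leads of A2m and Adam12 rest on few pericyte UMIs, 7 and 6, and rose to 61.5-fold and 17.0-fold once called doublets were removed. Sdk1 was at 296 CPM and 25.8-fold above Ctla2a cells. Sdc1, the cell surface proteoglycan syndecan, was at 490 CPM against 63.4 CPM in Ctla2a cells.

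Signalling genes formed another group. Nrg1 and Nrg2, ligands of the ErbB receptors, were at 219 and 116 CPM. Nrg1 was 12.0-fold above Ctla2a cells, and Nrg2, with 3 UMIs in pericytes, was 13.6-fold above them (exact interval 4.64 to 66.0). Ramp3, the partner protein of an adrenomedullin receptor, was at 1278 CPM against 70.9 CPM in pericytes. Ngfr, the low affinity neurotrophin receptor, was at 295 CPM against 22.8 CPM in myocytes. Ddit4l, a stress-induced inhibitor of mTOR, was at 1028 CPM against 85.3 CPM in Ctla2a cells. All 5 were at 24.3 CPM or lower in endothelial cells and at 7.09 CPM or lower in epithelial cells.

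The other leading genes included Mfap4 (477 CPM, 23.4-fold above Ctla2a cells), Eln, which encodes elastin (327 CPM, 7.67-fold above endothelial cells), and the matrix protein Spon2 (549 CPM, 9.71-fold above myocytes). Slc26a7, an anion transporter, was at 197 CPM and 23.1-fold above pericytes (exact interval 7.90 to 112). Col6a6, Gdpd2, Chst13 and Nrk lay between 63.0 and 91.8 CPM, and the pericytes held only 1 or 2 UMIs of each. The lead of Chst13 was 8.16-fold against the floor, and the ratio from its 2 UMIs themselves was 12.2 (exact interval 3.38 to 101), while Col6a6 was at 8.27 CPM in mesothelial cells. Crtac1 had no UMI in pericytes and was at least 8.97-fold higher in stromal cells. The remaining members were Krt85, Spats2l, Fbn2 and Pla1a, between 117 and 235 CPM, with leads of 7.93-fold to 10.5-fold, that of Krt85 resting on 4 pericyte UMIs. After thinning, the 63 pericytes left had a floor of 15.9 CPM, and the leads of 11 of the 25, Crabp1 and Slc26a7 among them, were set by that floor (at least 25.5-fold for Crabp1, which had 0 UMIs in them and a stromal level of 405 CPM). Spon2 was then 18.2-fold above Ctla2a cells. With cells weighted equally, the leads of Slc26a7, Krt85 and Adam12 were 43.7, 25.7 and 21.4.

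The leading genes did not vary alike from cell to cell. In stromal cells thinned to 3000 UMIs, Adam12 had a variance of 1.10 times its mean, close to what counting alone gives. The ratio was 4.84 for A2m, 3.04 for Eln and 2.85 for Crabp1. A2m was found in 61.6% of thinned cells and reached 41 UMIs in 1 of them. Crabp1 was found in 48.0% of thinned cells, Ramp3 in 89.2% and Htra1 in 95.4%.

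Collagens were the list with the most leading members. Of 28 tested collagen genes 11 led in stromal cells and 3 were at least 2-fold below the pooled other types, beside 1.44% and 21.7% of all genes. The median member was 7.66-fold above the pooled other types, while the median of all genes tested was 0.890-fold. The pool is mostly mesothelial and epithelial, with 83100966 and 78801159 of its 172057556 UMIs. Against the highest other type the median collagen was 1.44-fold and the median of all genes 0.501-fold. Col1a1 was at 4182 CPM, 6.43-fold above Ctla2a cells, and Col1a2 at 4707 CPM, 3.70-fold above mesothelial cells. Collagen VI chains Col6a1, Col6a2, Col6a3, Col6a4 and Col6a6 were all among the 11, and Col6a6 and Col6a4 are near neighbours on chromosome 9. Col3a1 was at 4799 CPM but only 1.96-fold above mesothelial cells. The 3 low members were Col4a6, Col8a2 and Col14a1.

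Elastic fibre genes were next, with 9 of 21 leading, 4 lower and a median member 5.93-fold above the pooled other types and 1.36-fold above the highest other type. Fibrillins Fbn1 (328 CPM, 4.14-fold above Ctla2a cells) and Fbn2, Fbln2 (902 CPM, 4.77-fold above endothelial cells) and the crosslinking enzyme Lox (365 CPM, 4.08-fold above mesothelial cells) were among the 9. Of 35 matrix proteases and inhibitors 9 led and 8 were lower, and the collagen-cutting protease Ctsk, at 211 CPM, was 4.12-fold above Ctla2a cells. Of 26 matricellular genes only Spon2 and Srpx2 led, and 4 were lower. The shares of all genes were 1.44% leading and 21.7% lower.

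Proteoglycans did not follow the collagens. Of 18 tested only Vcan led and 4 were lower, beside 1.44% and 21.7% of all genes. The median member was 1.08-fold the pooled other types. Dcn, decorin, which is often used to mark fibroblasts, was at 8859 CPM in stromal cells and 17675 CPM in mesothelial cells. Lum, lumican, was at 1065 and 3330 CPM in the same types. By contrast Pdgfra, a receptor of platelet-derived growth factor, was at 265 CPM in stromal and 3.13 CPM in mesothelial cells. Pdgfra stood at 213 CPM in Ctla2a cells.

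**Figure D2:**
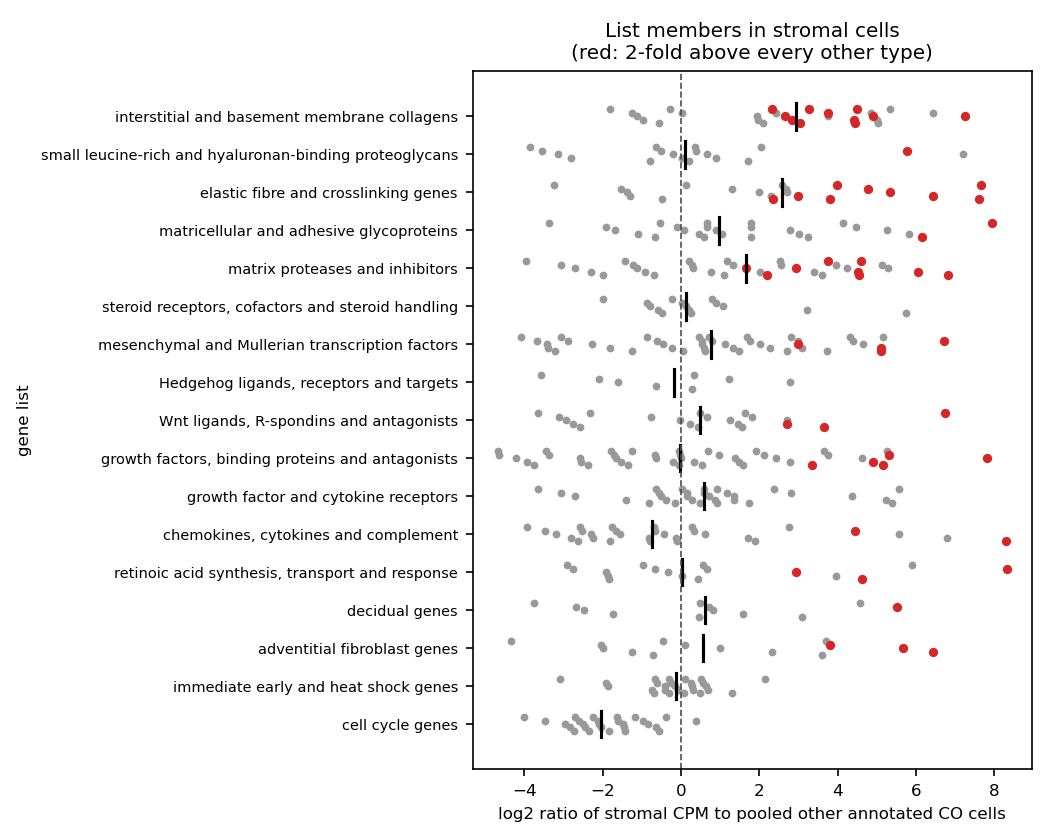
Members of 17 gene lists as points, placed by the log2 ratio of stromal CPM to the CPM of the pooled other annotated CO cells, with black bars at list medians and red points for genes at least 2-fold above every other type. Collagens and elastic fibre genes have medians of 2.93 and 2.57 on this log2 scale, and cell cycle genes have a median of −2.05.

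Of the 15 tested genes of the steroid list none led in stromal cells, beside 1.44% of all genes. Stromal cells were highest for 4, Pgr among these, where they were for 893 of all 11925 genes. Only Srd5a1 was lower, beside 21.7% of all genes. Esr1, the estrogen receptor, was at 233 CPM in stromal cells, 289 CPM in pericytes, 275 CPM in myocytes, 227 CPM in epithelial cells and 224 CPM in Ctla2a cells. Pgr, the progesterone receptor, was at 435 CPM against 256 CPM in myocytes, 204 CPM in Ctla2a cells and 75.9 CPM in epithelial cells. Hsd11b2, which inactivates glucocorticoids, was at 1145 CPM in stromal and 906 CPM in Ctla2a cells but at most 76.6 CPM in the other types.

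Of 42 transcription factors 4 led, namely Prrx2, Foxl2, Osr1 and Prrx1, and 10 were lower, beside 1.44% and 21.7% of all genes. Foxl2, a forkhead factor of the uterine stroma and ovary, was at 174 CPM against 65.6 CPM in Ctla2a cells and at most 17.0 CPM elsewhere. Hoxa10, Hoxa11 and Hand2, which act in the uterine stroma, were lower in stromal cells (252, 54.4 and 60.9 CPM) than in Ctla2a cells (1011, 181 and 161 CPM).

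Growth factor genes were split. Of 43 tested 5 led, among them Nrg1, Nrg2, Inhbb and Inhba, and 16 were lower, with a median of 0.977-fold. Inhbb, an activin and inhibin subunit, was at 714 CPM against 150 CPM in myocytes. Of 21 Wnt genes 3 led, Wnt16 (106 CPM, 5.57-fold above Ctla2a cells), Wnt5a (731 CPM, 2.90-fold above pericytes) and the feedback inhibitor Axin2 (94.8 CPM, 2.39-fold above pericytes), and 6 were lower, Wnt7b, Rspo1, Rspo3, Sfrp1, Sfrp2 and Lgr4. None of 8 tested Hedgehog genes led and 3, Boc, Cdon and Gas1, were lower. None of 31 growth factor and cytokine receptors led and 4 were lower. Over all genes 1.44% led and 21.7% were lower, and at 1.44% a list of 8 or 31 genes would often hold no leading gene.

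Of 30 chemokine, cytokine and complement genes 2 led, 13 were lower and 15 were neither. Over all genes 1.44% led and 21.7% were lower, which are the shares for the other lists of this paragraph too. The 2 that led were Ccl11 and Cxcl14, a chemokine at 1308 CPM that was 4.21-fold above Ctla2a cells. Of 12 decidual genes only Ptges, which makes prostaglandin E, led, and 4 were lower. Of 14 adventitial fibroblast genes Fbn1, Pi16 and Mfap5 led, and Dpp4, Clec3b, Pcolce2 and Col14a1 were lower. No immediate early or heat shock gene led among 26, and 3 were lower. Cell cycle genes were the lowest of the 17 gene lists, cell type markers aside, with none of 27 leading, 21 lower and a median of 0.242-fold. Mki67, a gene of dividing cells, had 19 UMIs in all 1326 cells (1.62 CPM). The 5 lowest genes against the pooled other types were Igkc, Jchain, Lrrn4, Trdn and Fmo2, which were 27.7-fold to 40.8-fold below and whose highest types were lymphocytes or mesothelial cells.

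Cells named for Ctla2a were the nearest type. Of genes at 50 CPM or more in either type, 19.4% differed by 2-fold or more between stromal and Ctla2a cells, 23.3% between stromal cells and pericytes, 28.6% between stromal and mesothelial cells and 41.6% between stromal and epithelial cells. Levels in smaller types carry more counting error, which raises such shares. The 456 genes higher in stromal than in Ctla2a cells outnumbered the 174 lower ones. When Ctla2a cells were left out of the comparison, which was decided after seeing the data, 235 genes led and 12 of the 25 leading genes were replaced, Pdgfra, Mfap5 and Hsd11b2 among the newcomers. Leaving out pericytes in the same way gave 237 genes.

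Stromal cells fell into 7 sub-clusters of 379, 320, 177, 174, 169, 69 and 38 cells, numbered here by size. No sub-cluster was given a cell type name. The genes that follow helped to form the sub-clusters and describe them without a test. Summed markers of other types differed between them. Smooth muscle sums were 751 and 783 CPM in sub-clusters 5 and 6 and 318 to 457 CPM in the others, against 40580 CPM in myocytes. Pericyte sums ran from 7.33 to 157 CPM, highest in sub-cluster 3, endothelial sums from 38.5 to 127 CPM and epithelial sums from 729 to 1163 CPM.

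**Figure D3:**
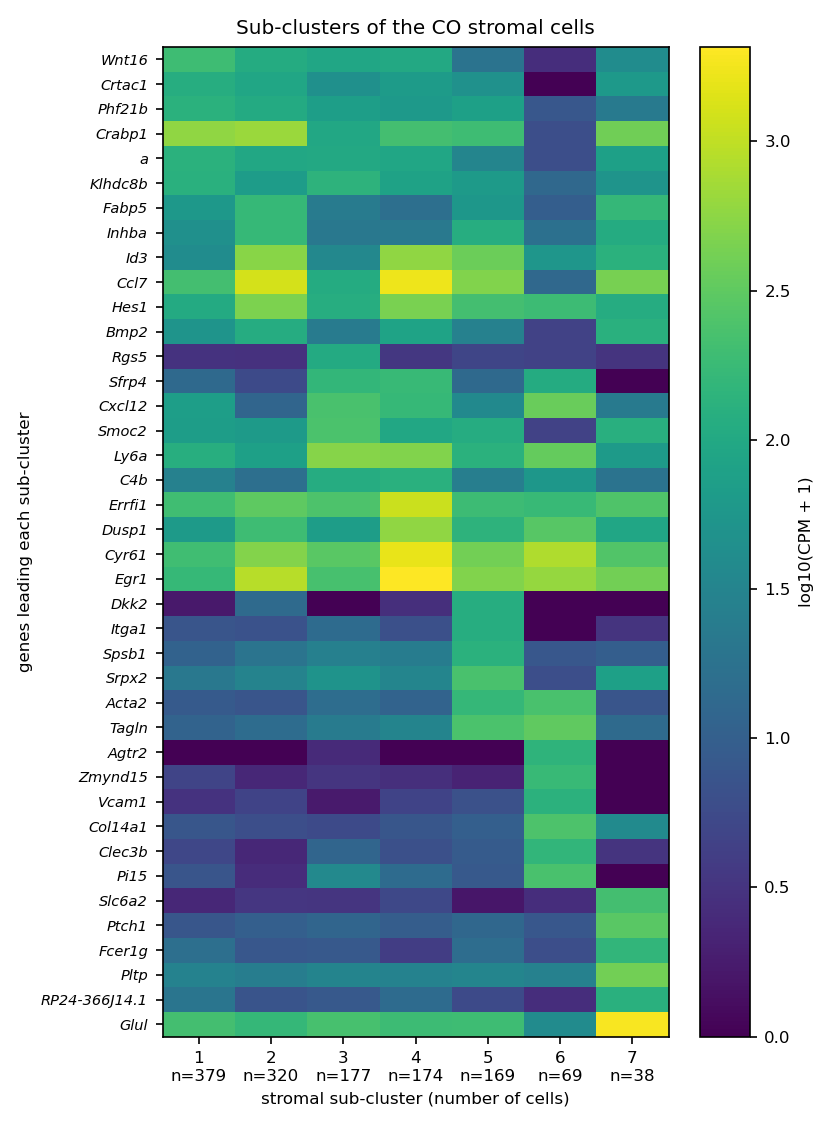
Levels of genes among the 6 with the largest lead in each of the 7 stromal sub-clusters, as log10(CPM + 1) on a colour scale, with the number of cells under each column. The genes of sub-clusters 6 and 7 (69 and 38 cells) are darker in the other columns, though Glul stays at 162 to 221 CPM in sub-clusters 1 to 5, whereas the blocks for sub-clusters 1 to 4 shade into their neighbours.

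The larger sub-clusters graded into each other, and a gene that led one by its ratio to all other stromal cells could be higher in another. Sub-cluster 1 was led by Wnt16 (194 CPM against 76.0 CPM in the other stromal cells), Crtac1, Phf21b, Crabp1 and the genes a and Klhdc8b, and it was low in Id3, Egr1 and Cxcl1. Of these Crabp1 was higher in sub-cluster 2 (648 against 580 CPM) and Klhdc8b in sub-cluster 3 (139 against 127 CPM). Sub-cluster 2 was led by Fabp5, Inhba (167 against 52.2 CPM), Id3, Ccl7, Hes1 and Bmp2. Ccl7 and Id3 were higher in sub-cluster 4 (1710 against 1277 CPM and 574 against 538 CPM), where Hes1 was at 441 against 460 CPM, and Bmp2 was higher in sub-cluster 7 (127 against 111 CPM). Sub-clusters 3 and 4 both had high Sfrp4, a secreted Wnt antagonist, at 154 and 171 CPM. It was at 110 CPM in sub-cluster 6 and at 12.6 CPM or lower in the other 4. Sub-cluster 3 also had more Cxcl12, Smoc2, Ly6a and C4b than the other stromal cells together, though Cxcl12 was higher in sub-cluster 6 and C4b in sub-cluster 4, and less Crabp1 (95.2 against 436 CPM). Its top gene by ratio, the pericyte gene Rgs5, came from 6 of its 177 cells.

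Sub-cluster 4 was led, besides Sfrp4, by genes that included Errfi1, Dusp1, Cyr61 and Egr1, genes that rise early after a stimulus. Its summed immediate early and heat shock genes were the highest of any sub-cluster, at 15093 CPM. Sub-clusters 2 and 6 followed at 11242.5 and 10822 CPM, then sub-clusters 5 and 7 at 7699 and 7484 CPM. The lowest were sub-clusters 3 and 1, at 5150 and 4506 CPM. With those genes and mitochondrial and ribosomal protein genes left out, 121 of 177 cells of sub-cluster 3 and 137 of 174 cells of sub-cluster 4 fell in 1 cluster of 264 cells. The part of the dissociation in these levels was not tested. Sub-cluster 5 was led by Dkk2 (117 against 4.41 CPM), the integrin Itga1, Spsb1, Srpx2 and the contractile genes Acta2 (162 against 21.4 CPM) and Tagln, and Eln was at 793 CPM in it. Endothelial cells held more Dkk2 and Itga1 than sub-cluster 5 did, at 143 and 389 CPM. Acta2 was found in 18.9% of the cells of sub-cluster 5. Acta2 and Tagln were higher still in sub-cluster 6, at 231 and 316 CPM. In myocytes Acta2 was at 11786 CPM.

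Sub-cluster 6 had the most leading genes at low levels. In its 69 cells (5.20% of stromal cells, exact interval 4.07 to 6.54%), 19 of the 25 leading genes were more than 2-fold below their level in the other stromal cells. The share was 9.86% over all genes at 50 CPM or more. The leading genes were chosen on levels carried mainly by the other stromal cells, so that share is not an even reference. Crabp1 fell to 5.24 CPM against 418 CPM, A2m to 33.2 against 846 CPM, and Dio2, which activates thyroid hormone, to 29.7 against 1223 CPM. Rxfp1, the relaxin receptor, was at 26.2 against 688 CPM. Of the fixed markers 3 were also low, with Col6a4 at 565 CPM, Ccl11 at 75.2 CPM and Mfap5 at 129 CPM, but Dpt (584 CPM), Col6a3 (2877 CPM) and Vcan (170 CPM) were not. Its own leading genes were Agtr2, an angiotensin receptor (143 CPM against 0.179 CPM, 2 UMIs in all other stromal cells), Zmynd15, Vcam1, Col14a1, Clec3b and Pi15. Pi15 was at 227 CPM in sub-cluster 6 and higher in Ctla2a cells, at 421 CPM. No cell in sub-cluster 6 was called a doublet.

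Sub-cluster 7, with 38 cells (2.87%, 2.04 to 3.91%), was led by Slc6a2, a noradrenaline transporter (209 against 2.04 CPM), Ptch1, Fcer1g, Pltp, the gene RP24-366J14.1 and Glul. Ptch1, receptor and target of Hedgehog signals, was at 292 CPM (244 to 346) in it and between 6.77 and 12.0 CPM in the other 6 sub-clusters. Gli1, another target, was at 39.5 CPM (18 UMIs) and at most 7.11 CPM elsewhere. Of the 25 leading genes 10 were more than 2-fold below their level in the other stromal cells, against 6.19% of all genes. That share has the same limit as a reference as for sub-cluster 6. Nppc, a natriuretic peptide, had 0 UMIs against 151 CPM. Crabp1 (397 CPM) and A2m (1458 CPM) were not low in it. Pltp, at 406 CPM in sub-cluster 7, was at 496 CPM in endothelial cells, and Fcer1g, at 149 CPM, was at 2027 CPM in myeloid cells. In each of 5 other clusterings at least 97.1% of the cells of sub-clusters 6 and 7 stayed together, whereas the total ran from 5 to 9 clusters.

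CO cells to which no type had been given held further cells with stromal markers. In all, 1647 CO cells (5.09%) had at least 1 UMI of each of Dpt, Vcan and Col6a3, and 860 of them were stromal (64.9% of stromal cells), 731 had no type, 33 were Ctla2a cells, 10 were epithelial and 10 mesothelial, and pericytes, myocytes and lymphocytes held 1 each. None of the 731 had passed the authors' quality control, as none of all 20134 cells without a type had. Their median was 12753 UMIs, above the 9037 of the 860 stromal cells, and the doublet caller marked 255 of them (34.9%), against 0.233% of the 860 and 7.95% of all cells without a type. They held more epithelial RNA (2899 against 964 CPM summed over the markers) and mesothelial RNA (876 against 183 CPM). Each leading gene was at 0.457 to 0.575 of its level in all 1326 stromal cells, with a median of 0.497. What share of the 731 are mixtures of cells was not tested.

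The DES library held a single stromal cell, with 6958 UMIs. Of the 25 leading genes it showed 3, namely Mfap4 with 2 UMIs and Pla1a and Eln with 1 each. It had 8 UMIs of Dpt, 11 of Col6a3, 4 of Mfap5 and 1 of Vcan, and none of Col6a4 or Ccl11. At the CO level a cell of that depth would be expected to hold 14.5 UMIs of Col6a4 and 10.2 of Htra1. One cell gives no comparison between treatments.

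The sections asked whether the leading genes, chosen in other mice, also marked the stroma in place. Each Visium spot covers several cells. Stromal spots were those in the clusters the study names stromal, 101 of 1433 spots in CO A, 188 of 1834 in CO B, 211 of 1575 in DES A and 132 of 1357 in DES B. Sections held 9117099 to 12506177 UMIs. The study notes a tissue fold in CO B and poorly resolved clusters in DES B. A pathologist had examined the DES tissue for adenocarcinoma, the blocks were cored to the areas of interest, and the paper describes cancer regions in the DES tissue measured. The regions were themselves drawn from these spot counts, so comparing their levels by a fit gives no independent test of them. That fit gave each section its own term. Its p-values and standard errors rest on a spread estimated over the CO and DES sections together and drawn in part from all genes. For a single gene they can therefore be smaller than the variation between its own sections would give.

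The stromal spots of the 2 treatments differed in muscle content. The smooth muscle markers summed to 1137 CPM in stromal and 16153 CPM in other spots of CO A, and to 906 and 18761 CPM in CO B. In DES A the sums were 3422 and 3977 CPM, and in DES B 10326 and 4193 CPM. The stromal markers were higher in stromal than in other spots of every section (5916 against 2051 CPM in CO A, 3062 against 1581 in CO B, 4523 against 1221 in DES A and 3199 against 906 in DES B). Epithelial markers were lower in stromal than in other spots, at 5205 against 8041 CPM in CO A, 3929 against 5957 in CO B, 3549 against 6661 in DES A and 2278 against 7009 in DES B. Pericyte, endothelial and lymphocyte sums were higher in the stromal spots of every section. Myeloid sums were higher in those of CO A and CO B (969 against 452 CPM and 1753 against 779 CPM), and in DES they were 2735 against 2534 and 1521 against 1532 CPM.

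In the CO sections 22 of the 25 leading genes were higher in stromal than in other spots (edgeR quasi-likelihood test, Benjamini-Hochberg over all genes), where 6.47% of 13542 genes were. The other 3, Gdpd2, Fbn2 and Nrk, did not pass, and the median log2 difference was 1.55 over all 25. Crabp1 was at 260 against 40.1 CPM in CO A and 26.0 against 5.44 CPM in CO B, a log2 difference of 2.50 ± 0.23 (SE; adjusted p = 2.67e-09). Spon2 was at 1252 against 287 CPM and 994 against 270 CPM, a log2 difference of 1.95 ± 0.18 (adjusted p = 1.47e-09). Chst13, Crtac1 and Slc26a7 completed the 5 with the largest differences, at 2.37, 2.34 and 2.29. DESeq2 called 16 of 23, and Chst13 (adjusted p = 0.126), Krt85, Ddit4l and Eln were not among them. With robust estimates of the spread 21 passed, and Ddit4l did not (adjusted p = 0.587). Without a term for the section, 1 of the 25 passed. The shares of all genes that passed in these fits, and in the fits below without CO A or CO B, are not set beside these counts. A loss of calls in them therefore cannot be called particular to the leading genes.

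The 5 smallest were Krt85, Ddit4l, Sdc1, Eln and Fbn2. Sdc1 was at 614 against 196 CPM in CO A and 139 against 85.7 CPM in CO B (log2 difference 1.15 ± 0.21, adjusted p = 0.000282). Eln was at 197 against 97.6 CPM and 41.2 against 29.3 CPM (0.75 ± 0.21, adjusted p = 0.0157). Fbn2 was at 55.5 against 29.4 CPM in CO A but 5.42 against 9.30 CPM in CO B (0.36 ± 0.38, adjusted p = 0.649). Only 10 genes passed without CO A, where Chst13, Crtac1, Krt85, Ddit4l, Sdc1 and Eln were among those that did not, while 20 passed without CO B.

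**Figure D4:**
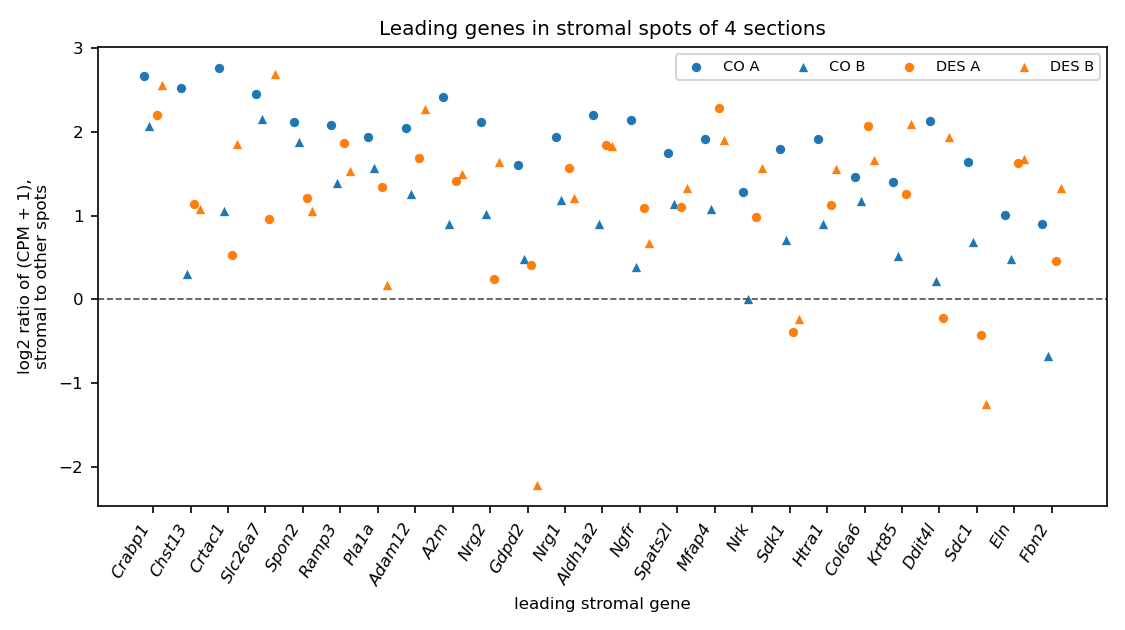
The 25 leading genes, ordered by their log2 difference in the CO sections, with the log2 ratio of CPM + 1 in stromal to other spots on the vertical axis and 1 point per section. All CO A points are above 0, the CO B point of Fbn2 is below 0, and the points of Sdk1 and Sdc1 are above 0 in both CO sections and below 0 in both DES sections.

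In CO stromal spots 5 of the 6 fixed markers were higher, where 6.47% of all genes were. The study named the spot clusters by published cell type markers and treats Vcan, Dpt and Col6a3 as stromal markers. High levels of such markers were therefore partly built into the naming and are no test of it. Col6a3 was not higher (log2 difference 0.02 ± 0.20, adjusted p = 0.976). Col6a3 was at 1733 against 1072 CPM in CO A and 469 against 697 CPM in CO B. Of the genes that led sub-cluster 1, 5 of 6 were higher in CO stromal spots (Wnt16, Crtac1, Phf21b, Crabp1 and a), and Klhdc8b was not. Crabp1 and Crtac1 are also among the leading genes counted above. Id3 and Ccl7 were higher among the genes that led sub-cluster 2, Rgs5 alone among those of sub-cluster 3, and none among those of sub-cluster 4. Outside the stroma Id3 was at 784 CPM in endothelial cells, Ccl7 at 669 CPM in myeloid cells and Rgs5 at 5143 CPM in pericytes. The marker sums of these types were also higher in CO stromal spots, and their part was not tested. Of the genes that led sub-cluster 6, none was higher and 2, Zmynd15 and Clec3b, were lower, where 5.5% of all genes were lower. Clec3b was at 1.79 against 5.36 CPM in CO A and 1.08 against 26.0 CPM in CO B. Of those that led sub-cluster 5, Acta2 and Tagln were lower, at −4.78 and −4.79, in stromal spots low in muscle markers, and none was higher. For sub-cluster 7, Fcer1g and Pltp were higher and Ptch1 was not (−0.68 ± 0.44, adjusted p = 0.389). Fcer1g was at 2027 CPM in myeloid cells, whose markers were also higher in these spots, and their part was not tested.

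Among the lists, 14 of 28 collagens, 8 of 22 elastic fibre genes, 20 of 35 proteases and inhibitors and 17 of 41 transcription factors were higher in CO stromal spots, where 6.47% of all genes were, with median log2 differences of 0.96, 0.56, 0.70 and 0.71. The median of all genes was −0.03. Lower were 6 of the transcription factors (Pax8, Meis2, Klf4, Msx1, Meis1 and Gata6), 2 of the proteases and inhibitors (Adam33 and Mmp3), 1 elastic fibre gene (Efemp1) and no collagen, where 5.5% of all genes were. Of 17 proteoglycans 2 were higher and 3 lower, and of 28 cell cycle genes none was higher and 1 was lower.

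In the DES sections 16 of the 25 leading genes were higher and 1, Sdc1, was lower in stromal spots. Of all 13542 genes 7.16% were higher and 766 were lower. The stromal enrichment itself differed between DES and CO sections for 3 of the 25, beside 3.37% of all genes. All 6 fixed markers were higher in DES stromal spots, and among them only the enrichment of Col6a3 differed, being larger in DES. The DES stromal spots too had been named by markers of this kind, so that count is no test of the naming. Sdc1 was at 418 against 561 CPM in DES A and 182 against 435 CPM in DES B, the reverse of both CO sections, and its enrichment differed by −1.85 ± 0.30 on the log2 scale (adjusted p = 0.000113). Sdk1 was at 29.5 against 39.1 CPM and 37.5 against 44.4 CPM in the DES sections, a difference in enrichment of −1.65 ± 0.38 (adjusted p = 0.00715). Eln was at 143 against 45.4 CPM and 165 against 50.7 CPM, a difference of 1.01 ± 0.29 (adjusted p = 0.0449). The muscle and epithelial marker sums of the compared regions moved with these differences, and their part was not tested.

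Over whole sections, 4 of the 24 leading genes tested were lower in DES than in CO, where 2.63% of 14098 genes were lower. None was higher by edgeR, where 2.67% of all genes were, and 13 of the 24 had an unadjusted p under 0.05 in either direction, where 24.4% of all genes had. DESeq2 called 10 of 25 lower, where 6.23% of genes were, and 2 higher, where 5.26% were. Fewer cells of a type and less RNA per cell cannot be told apart in such sums. Slc26a7 was at 43.6 and 32.3 CPM in the CO sections and 4.06 and 9.31 CPM in the DES sections (log2 difference −2.70 ± 0.46, adjusted p = 0.0452). Ddit4l was at 108 and 65.3 against 21.7 and 22.5 CPM (−2.18 ± 0.30, adjusted p = 0.0312).

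Spon2 was at 330 CPM in CO A and 330 CPM in CO B and at 92.8 and 88.7 CPM in DES A and DES B (−2.07 ± 0.16, adjusted p = 0.0183). Htra1 was at 350 and 365 against 177 and 139 CPM (−1.39 ± 0.18, adjusted p = 0.0291). In all 4 genes the CO and DES sections did not overlap, which follows largely from choosing genes that passed on these same sections. The share of all genes without such overlap was not counted. With 2 sections against 2 no exact test could go below 0.33, and the calls rest on both DES sections. None of the 25 passed by edgeR without DES A (11 at an unadjusted p under 0.05) or without DES B (12), but in those fits nearly no gene passed, 0.0955% and 0.0204% of all being higher and 0 lower. Without CO A 15 of 24 passed (7 higher and 8 lower), where 9.02% of all genes were higher and 10.4% lower. Without CO B 15 of 25 passed (1 higher and 14 lower), where 7.91% were higher and 8.19% lower.

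The other leading genes did not share 1 direction. A2m was at 229 and 87.6 CPM in the CO sections and 375 and 547 CPM in the DES sections (1.33 ± 0.52, adjusted p = 0.208). Sdc1 was at 215 and 90.1 against 545 and 426 CPM (1.45 ± 0.45, adjusted p = 0.142). Aldh1a2 was at 258 and 93.5 against 44.9 and 34.5 CPM (−2.37 ± 0.53, adjusted p = 0.0762). Crabp1 differed more between sections of 1 treatment than between treatments, at 49.9 and 7.16 CPM in CO and 56.7 and 6.07 CPM in DES. Of the 24, 17 had lower and 7 higher estimates, with a median of −1.19. None of the 6 fixed markers passed by edgeR, and 3 had an unadjusted p under 0.05, beside the 24.4% of all genes. Over the stromal spots alone, a comparison added after seeing the data, 2 of 19 leading genes tested were lower, where 0.673% of 8914 genes were. They were Spon2 (−2.66 ± 0.32, adjusted p = 0.0185) and Pla1a (−2.79 ± 0.48, adjusted p = 0.0367). Smooth muscle marker sums were higher in the DES than in the CO stromal spots, as given above, and their part was not tested.

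**Figure D5:**
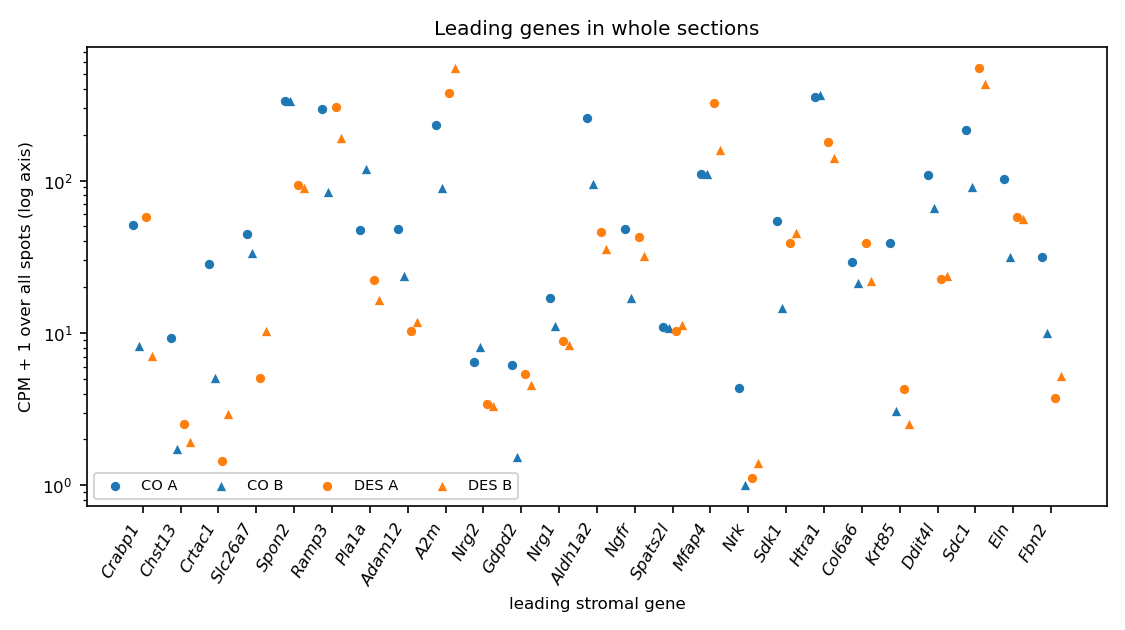
Levels of the 25 leading genes over all spots of each section, as CPM + 1 on a log axis, with 1 point per section and circles and triangles for the A and B mice. Spon2 and Htra1 lie close together within each treatment and apart between treatments, while the A and B points of Crabp1 are far apart in both.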

How the data were processed

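The authors aligned reads to mm10 with Cell Ranger 3.0.1 (cells) and Space Ranger 1.2.2 (spots), after bcl2fastq 2.20.0.422, and deposited raw UMI counts per gene with a table of cell types. Per their methods they removed doublets with scran before naming types. Of the metadata rows, 350 had no counts and were left out. 0 columns of no sample were used. Single-cell levels and intervals rest on summed counts, since each condition was 1 pooled library. Cells were thinned to 3000 UMIs with 1 fixed seed for shares of cells with a UMI. Stromal cells were clustered with scanpy 1.11.5 and leidenalg 0.10.2 on 2000 variable genes and 30 principal components at resolution 0.5, without removing doublets, and Scrublet calls were used as an alternative.

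Section counts were summed over stromal and other spots and tested with edgeR 4.0.16 (quasi-likelihood, limma 3.58.1, R 4.3.3), with Benjamini-Hochberg adjustment over all genes tested and a threshold of 0.05. Stromal against other spots was fitted over the CO and DES sections together, with a term for each section. Whole sections were compared without one. DESeq2 1.42.0 was an alternative. Each section came from a separate mouse. The fits were tested on simulated data.

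The members and lists were chosen with earlier results of these data known. Genes named were the fixed markers, the 25 leading genes, up to 4 members of each list by level and by ratio, the 5 lowest genes, the 6 genes with the largest ratio in each sub-cluster, and in the sections the 5 largest and 5 smallest enrichments and the genes that passed between treatments. Genes that were low in a list or sub-cluster, the Hox genes, Hand2 and Mki67, and the leading genes described between treatments without passing, were named after their values were seen. Promoters came from RefSeq (GRCm38.p6). A few named items are not reported here.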

Additional observations from a re-analysis of the deposited data

Results flagged for a closer look

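The 731 CO cells without a type that held Dpt, Vcan and Col6a3 lie outside the annotated cells compared above, and 3 of the 16312 DES cells held all 3 genes.

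The stromal enrichment of Sdc1 differed between treatments by −1.85 on the log2 scale (DES minus CO), that of Sdk1 by −1.65 and that of Eln by 1.01, each by edgeR's test of the difference itself. Sdc1 and Sdk1 were higher in stromal spots in both CO sections and lower in both DES sections, and Eln was higher in stromal spots in all 4.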

How the results depend on the processing

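With the cells that held Dpt, Vcan and Col6a3 in place of the annotation, stromal cells made up 7.48% of annotated CO cells. Genes that led numbered 94 at 3-fold over every other type and 1091 at 2-fold over the pooled other cells. Cells with all 3 markers numbered 716 at 2 UMIs of each gene and 456 after thinning. In CO stromal spots, 1 of the 25 leading genes passed with no section term, 40 of 50 passed with the longer list, and leaving out 1 section gave 10 to 22. Between treatments, DESeq2 called 12 genes (2 higher, 10 lower), stromal spots alone gave 2, and leaving out 1 section gave 0 to 15. The estimate of Fbn2 in stromal spots reversed to −0.83 without CO A and was 0.77 without CO B. The cause was not tested in any of these. Of the recomputed leads of single genes, 111 stayed within 1.5 times and 14 did not, 8 of them set by the pericyte floor after thinning. Of the marker levels, 17 stayed within the counting interval and 13 did not. Of the section differences of single genes, 79 in stromal spots and 25 between treatments kept their direction and side of the threshold, and 20 and 11 lost their call. With an arm of 1 section, the lone section is assumed to vary like the others. No paired analysis was possible because the letters A and B name separate mice and do not pair CO with DES. Pericytes, with 75 cells, limit the precision of most leads.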
